A study of Ovis aries with 27 samples.

Results

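The genes described here set how much glucocorticoid signal a cell receives: NR3C1, the glucocorticoid receptor, HSD11B1 and HSD11B2, the enzymes that activate and inactivate cortisol, and CRHR1, a receptor for corticotropin-releasing hormone. They were chosen by gene, with earlier results of these data known. They were found by the transcript identifier given for each spot in the scanner files, matched to RefSeq genes. This returned 6 of the 15008 probes on the array: 1 for NR3C1, 2 for HSD11B1, 2 for HSD11B2 and 1 for CRHR1. The scanner files give HSD11B2 under its older symbol HSD11K and CRHR1 under CRF1. All 6 passed the filter on dim probes, a signal well above background on at least 6 of 27 arrays. The mineralocorticoid receptor NR3C2, which also binds cortisol, was set beside them through its 2 probes, which are named only in the description field.

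Heart septum, the wall between the ventricles, was taken from 27 sheep fetuses, and each RNA was hybridised to its own one-colour Agilent sheep array. The ewes, not the fetuses, were infused, either with cortisol at 1 mg/kg/d or with vehicle. The older fetuses were collected at 139 to 144 d of gestation, near term, after about 25 d of infusion begun at about 115 d, with 7 in the cortisol group and 8 in the control group, called 140 d here. The younger fetuses were collected at 129 to 131 d after about 10 d of infusion begun at about 120 d, with 6 in the cortisol group and 6 in the control group, called 130 d here. One of the labels places the start near 115 d in every ewe. Each age is its own cohort and was infused for a different time, so in either arm an age difference is also one of cohort and infusion time, which cannot be told apart. Among the 8 controls at 140 d, which had 7 mothers, the twin pair is not identified, so each fetus was counted as independent. None of 12 cardiomyocyte markers was on the array under the symbols used. Myoglobin, the oxygen store of heart and skeletal muscle, was looked up after the values were seen, and both of its probes were well above background on all 27 arrays.

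Cortisol acts through receptors that sit in the cytoplasm with chaperones and move to the nucleus once the hormone is bound. HSD11B1 raises the cortisol available inside a cell by regenerating it from inactive cortisone. HSD11B2 inactivates cortisol and, in kidney, keeps it away from the mineralocorticoid receptor. CRHR1 starts the pituitary's release of corticotropin, which in turn drives cortisol synthesis in the adrenal cortex, and it also binds urocortin.

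The probe sequences are shown because they tell which probes of a gene read the same stretch of it. Each probe is 60 bases long, and its start is counted from the first base of the transcript. The NR3C1 probe starts at base 2259 and the CRHR1 probe at base 831, and both are given whole.
NR3C1 A_70_P016896: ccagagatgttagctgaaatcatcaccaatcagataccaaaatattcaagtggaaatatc
CRHR1 A_70_P029981: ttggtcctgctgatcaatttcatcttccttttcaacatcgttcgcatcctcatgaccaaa
The HSD11B1 probes start at bases 1273 and 1151, which are 122 bases apart, so they share no sequence and read the transcript at separate places. Their first 30 bases are shown.
HSD11B1 A_70_P051221: atgtcgcattggctttaacttcagttcatt
HSD11B1 A_70_P051222: ctgcgaaattgacagtatccatagatataa
The HSD11B2 probes start at bases 1771 and 1770 and share 59 of their 60 bases, so they are near-copies of one reading. Their last 30 bases are shown, and the capitals mark the letters AATAAA, the usual polyadenylation signal.
HSD11B2 A_70_P051181: gacactttttgAATAAAgataaatttttat
HSD11B2 A_70_P051182: tgacactttttgAATAAAgataaattttta
On the printed strand, the only one searched, AATAAA occurs in 845 of the 15008 probes (5.63%). Among the 6 probes described here it occurs in the 2 for HSD11B2.

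Values are given as the scaled intensity, the spot's background-subtracted intensity as a percent of the 75th percentile of all probes on the same array, and differences as log2 of that value. The 75th percentile itself was lower in the older cohort, at 884 ± 149 with cortisol (SD, n = 7) and 838 ± 59.3 in controls (SD, n = 8), against 1093 ± 77.0 with cortisol and 1160 ± 102 in controls at 130 d (SD, n = 6 each). Brightness of 1 probe is not set against that of another, since probes bind with different strength. A call is an adjusted p under 0.05 from limma over the 12775 tested probes. Unless said otherwise, each adjusted p below is of that kind.

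HSD11B1, the enzyme that regenerates cortisol, was 1.92- to 2.06-fold higher at 140 d than at 130 d on both of its probes, with and without cortisol. For A_70_P051221 the scaled intensity in the cortisol arm had a low of 17.2%, a median of 33.6% and a high of 59.4% at 140 d, against 12.6%, 19.2% and 22.2% at 130 d. In the control arm the same 3 values were 22.0%, 30.0% and 53.9% at 140 d, against 11.2%, 16.2% and 21.7% at 130 d. All 8 older controls lay above all 6 younger controls. With cortisol the groups overlapped because replicates 3 and 6 at 140 d lay among the younger fetuses. The high of 59.4% belonged to cortisol replicate 4 at 140 d. Its unscaled intensity was 357, against 556 for replicate 2, which had 51.5%. On the array of replicate 4, 44 probes lay more than 2 log2 above all other arrays, the most of any array. The second probe, A_70_P051222, had 2.98%, 7.77% and 13.1% at 140 d with cortisol, against 2.19%, 3.62% and 4.80% at 130 d. Its control values were 4.50%, 6.02% and 9.60% at 140 d, against 1.73%, 3.47% and 4.37% at 130 d, again with no overlap.

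The fitted difference between the ages in controls was 0.95 ± 0.25 (log2, SE) for A_70_P051221 and 0.99 ± 0.29 for A_70_P051222, with adjusted p of 0.0105 and 0.0186. With cortisol it was 0.94 ± 0.26 and 1.04 ± 0.30, with adjusted p of 0.0167 and 0.0205. Thus 2 of the 6 probes were called in each age comparison, both higher and both of the 1 gene HSD11B1. Over all tested probes 19.1% were called in either direction in controls and 13.5% with cortisol. Called higher were 9.77% of all tested probes in controls and 4.94% with cortisol, and called lower 9.35% and 8.52%. Groups that did not overlap, with 140 d higher, were found for 2 of the 6 probes in controls, beside 3.52% of all tested probes, and for 0 of the 6 with cortisol, beside 1.54%. Exact two-sided permutation tests over fetuses gave p = 0.00133 and 0.000333 in controls, and 0.0134 and 0.0192 with cortisol. Over the 27 arrays the 2 probes correlated at r = 0.964, and at 0.934 with group means removed.

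**Figure D1:**
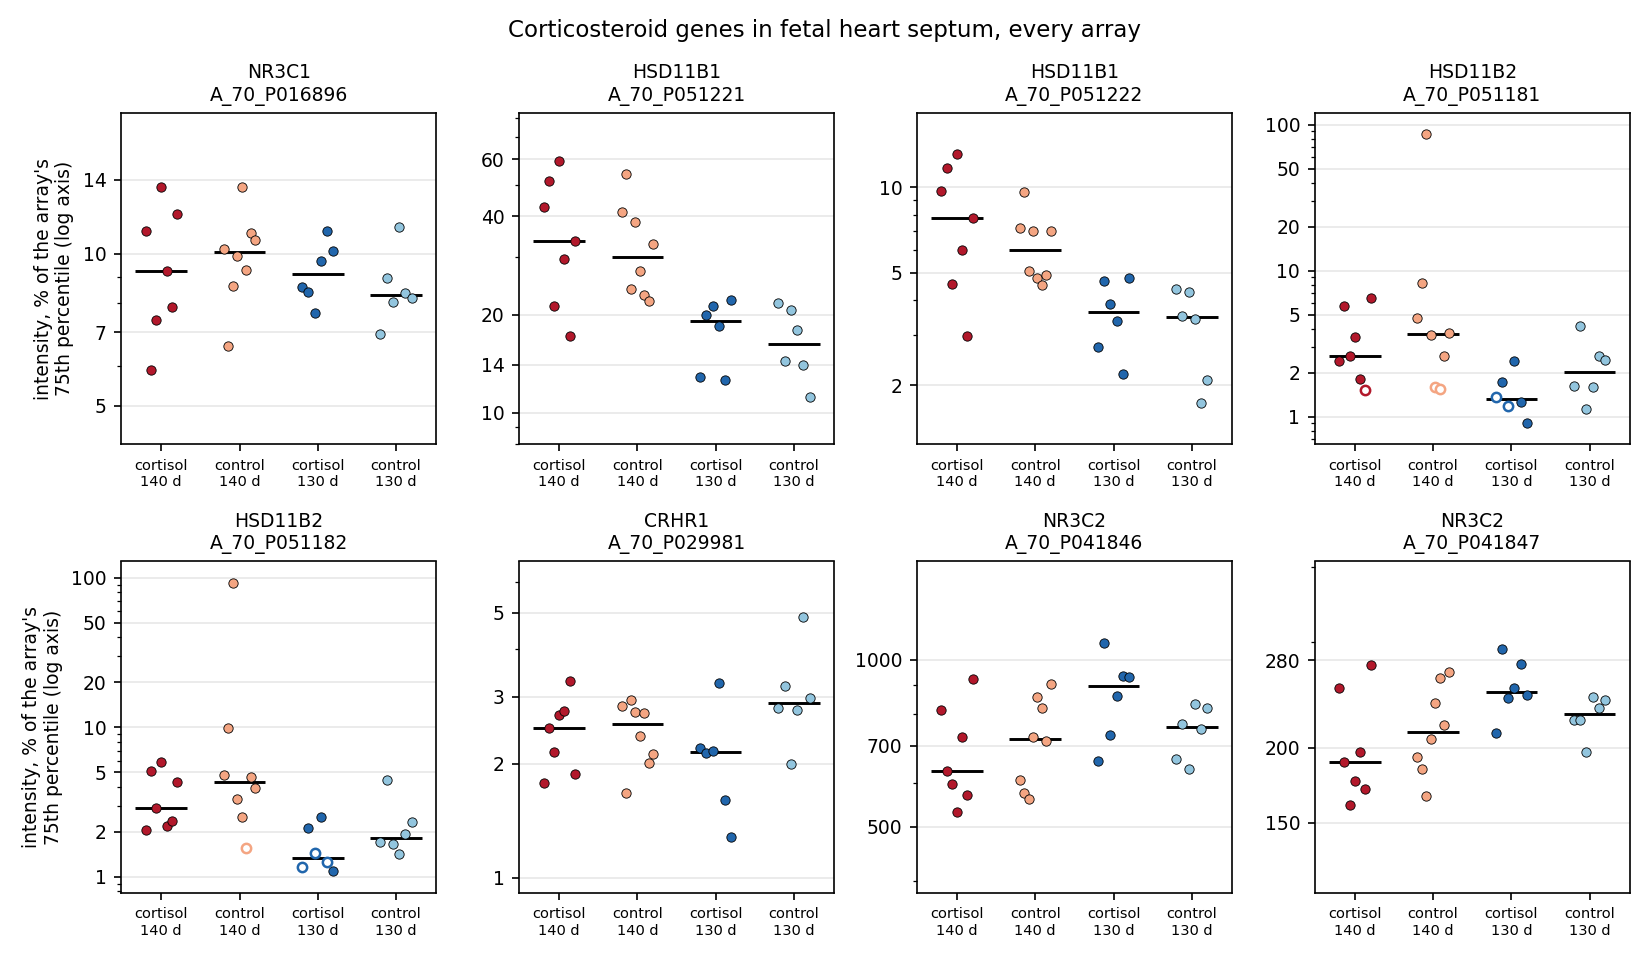
Scaled intensity (percent of the array's 75th percentile, log axis) of the 6 probes and of the 2 NR3C2 probes, 1 point per fetus, with a line at the median of each group. Open points were not well above background. Both HSD11B1 probes sat higher in the 140 d groups, and a single control at 140 d lifted both HSD11B2 probes to 85.8% and 92.1%.

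The arrays were spread over 5 slides, each scanned at its own time, and slides 2, 3 and 4 held all 4 groups. For A_70_P051221 the controls on slide 2 averaged 47.6% at 140 d and 18.1% at 130 d, with 2 fetuses each. On slide 3 they averaged 31.3% and 19.3%, again with 140 d first. On slide 4 the single control at 140 d had 27.1%, and the 2 controls at 130 d averaged 12.6%. With cortisol, slide 2 gave 36.4% at 140 d and 16.4% at 130 d, and slide 3 gave 44.5% and 19.8%. Slide 4 showed no such difference, with 17.2% in the single cortisol fetus at 140 d and a mean of 17.4% in the 2 at 130 d. In the fit with slide as a fixed block, the HSD11B1 probes stayed past the threshold in both arms (0.87 to 1.00, log2).

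**Figure D2:**
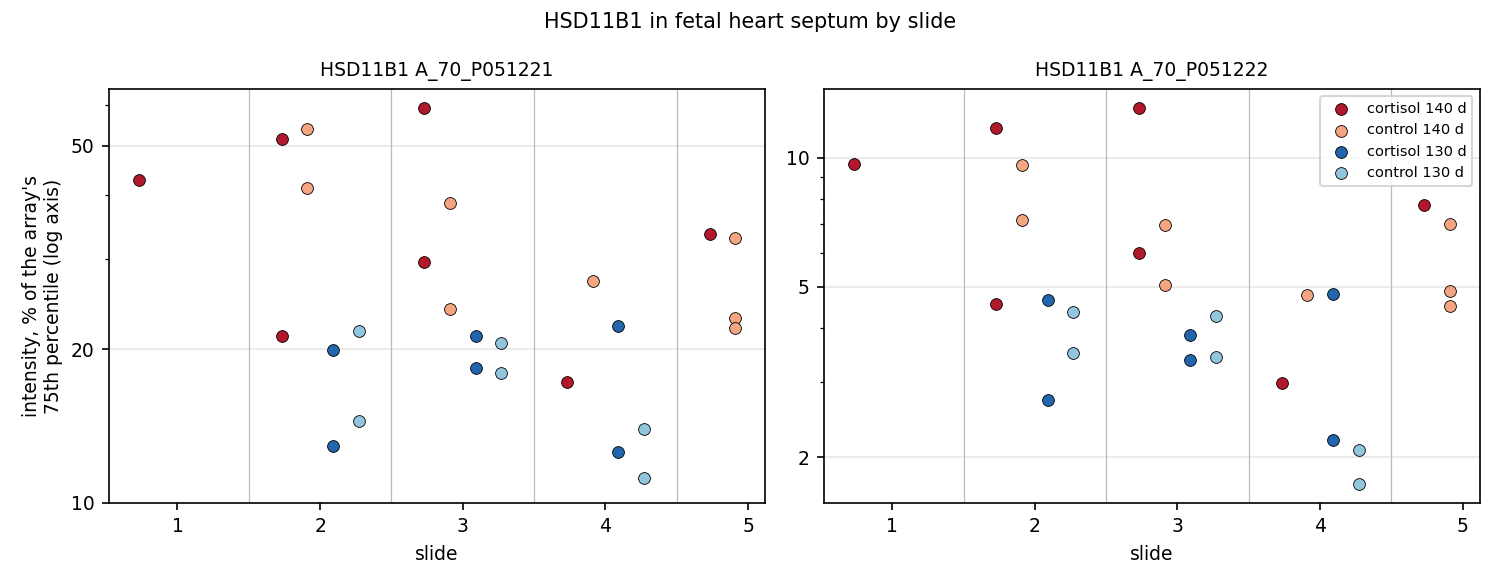
Scaled intensity of the HSD11B1 probes (percent of the array's 75th percentile, log axis) on each slide, 1 point per fetus, coloured by group. Within each arm the older fetuses lay above the younger ones on slides 2 and 3, except for A_70_P051222 on slide 2, where 1 cortisol fetus at 140 d (4.55%) lay below 1 at 130 d (4.66%). On slide 4 the cortisol fetus at 140 d, at 17.2% for A_70_P051221, lay between the 2 at 130 d.

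The size of the HSD11B1 difference depended on the scaling between arrays. Unscaled, A_70_P051221 had median intensities of 331 with cortisol and 241 in controls at 140 d, against 199 with cortisol and 193 in controls at 130 d. With no scaling the differences were 0.49 and 0.52 in controls and 0.62 and 0.72 with cortisol, with adjusted p between 0.0571 and 0.121, while the median over all tested probes was -0.47 in controls and -0.37 with cortisol. With normexp in place of the scanner's background subtraction they were 0.87 and 0.73 in controls (adjusted p 0.0588 and 0.275) and 0.65 and 0.35 with cortisol (0.246 and 0.877). The direction was higher at 140 d under each of these scalings.

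Genes of other cell types moved between the ages too. Of 4 adipocyte genes measured, 3 were called higher at 140 d in controls: PLIN1, the coat protein of lipid droplets, LPL, which releases fatty acids from lipoproteins, and LEP, leptin. LPL averaged 485 ± 127% at 140 d and 288 ± 102% at 130 d in controls (SD, n = 8 and 6). With cortisol, 2 of the 4 were called higher, PLIN1 and LPL. Over all tested probes 9.77% were called higher in controls and 4.94% with cortisol. LEP was not called with cortisol (0.04 ± 0.11, log2, SE). FABP4, the remaining gene of the 4, was not called in either arm (0.22 ± 0.99 in controls and -0.29 ± 1.02 with cortisol). The summed scaled intensity of the 4 ranged from 434% to 770% with cortisol and from 456% to 842% in controls at 140 d, against 239.7% to 391% with cortisol and 279.7% to 555% in controls at 130 d. LPL made up most of this sum, whose median was 519.5% in controls at 140 d. HSD11B1 is also known as an enzyme of fat tissue, and the part of adipocyte content in its difference was not tested. Called lower at 140 d in controls were both red blood cell genes on the array, HBB and AHSP. So were 3 of 5 immune genes and 1 of 5 fibroblast genes, beside 9.35% of all tested probes. None of these lists had a call with cortisol, where 8.52% of all tested probes were called lower. The summed red blood cell level ranged from 158% to 3357% with cortisol and from 302% to 2799% in controls at 140 d, against 1901% to 4362% with cortisol and 1676% to 5640% in controls at 130 d. In tissue RNA, more cells of a type and more RNA per cell cannot be told apart.

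Maternal cortisol left HSD11B1 within the spread between fetuses at either age. The cortisol minus control difference of A_70_P051221 was 0.10 at 140 d (95% interval -0.40 to 0.59, adjusted p = 0.939) and 0.10 at 130 d (-0.45 to 0.66, adjusted p = 1.0). For A_70_P051222 it was 0.24 at 140 d (-0.33 to 0.80) and 0.18 at 130 d (-0.45 to 0.82). By mean scaled intensity of A_70_P051221 the groups ran from cortisol at 140 d (36.5 ± 15.6%) through control at 140 d (32.9 ± 11.2%) and cortisol at 130 d (17.9 ± 4.18%) to control at 130 d (16.6 ± 4.11%), as mean ± SD. The pairs of neighbours at the same age did not differ beyond their spread. The cortisol effect differed between the ages by -0.01 ± 0.36 and 0.05 ± 0.41 for the 2 probes, with adjusted p of 1.0 and 0.998.

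No probe on the array was called for cortisol against control at 140 d or at 130 d, for a cortisol effect that differed between the ages, or for the cortisol effect averaged over both ages (0% of 12775 by limma in each). At an unadjusted p under 0.05 there were 727, 454, 742 and 351 probes, in that order. Of the 6 probes described here, only CRHR1 had an unadjusted p under 0.05 in any of these comparisons, at 130 d.

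HSD11B2, which inactivates cortisol, was dim in this tissue. Its probes were well above background on 22 and 23 of 27 arrays, with median intensities of 21.3 and 23.2. The dimmest group was cortisol at 130 d, in which 4 and 3 of 6 arrays were well above background. For A_70_P051182 the scaled intensity in the cortisol arm had a low of 2.07%, a median of 2.91% and a high of 5.88% at 140 d, against 1.098%, 1.35% and 2.53% at 130 d. In controls it had 1.56%, 4.32% and 92.1% at 140 d, against 1.42%, 1.83% and 4.49% at 130 d. The 92.1% belonged to 1 fetus, control replicate 3 at 140 d, and the next highest of all arrays was 9.87%. The other probe, A_70_P051181, gave 85.8% on that array and at most 8.30% elsewhere, and since the probes share nearly all their bases this is 1 reading and not 2.

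HSD11B2 was not called in any comparison of the main fit. At 140 d against 130 d it differed by 1.11 ± 0.58 with cortisol and by 1.44 ± 0.56 in controls for A_70_P051182, with adjusted p of 0.214 and 0.0712. For A_70_P051181 these were 1.11 ± 0.61 and 1.23 ± 0.60, with adjusted p of 0.245 and 0.148. With cortisol, all 7 older fetuses lay above the mean of the younger ones for both probes, and the exact two-sided permutation p was 0.00874 for A_70_P051182 and 0.0128 for A_70_P051181. Leaving out control replicate 3 at 140 d brought the control difference of A_70_P051182 down to 0.87, while its cortisol-arm difference of 1.11 was then past the threshold (adjusted p = 0.0342). Without cortisol replicate 4 at 140 d as well, a setting chosen after seeing the data, that difference was 0.97 (adjusted p = 0.0555). Control replicate 3 is not in the cortisol arm and acts on it only through the spread shared by the 4 groups in the fit. Of 43 alternatives, 2 called the cortisol-arm difference of A_70_P051182, the one without this control and 1 other setting (adjusted p = 0.0288). With normexp the cortisol-arm difference was only 0.17 for A_70_P051182 and 0.16 for A_70_P051181 (adjusted p = 1.0 for both), and the control difference 1.05 and 1.03. Cortisol minus control was -0.79 ± 0.54 at 140 d for A_70_P051182 (adjusted p = 0.808), and -0.21 without that control. At 130 d it was -0.46 ± 0.60 (adjusted p = 1.0), and 0.48 with normexp, where its sign turned.

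The array with the high HSD11B2 also had high readings for genes of steroid synthesis. On it STAR, which brings cholesterol into mitochondria, read 45.5% and 35.1% on its 2 probes, and at most 2.83% and 2.37% on the other 26 arrays. CYP11B1, which makes cortisol in the adrenal cortex, read 6.84% there and at most 1.49% elsewhere. CYP21, the steroid 21-hydroxylase, read 363% there and at most 148.5% elsewhere. MC2R, the corticotropin receptor, read 2.01% there and at most 0.940% elsewhere. CYP17A1, another enzyme of the pathway, had 117% and 7.85%, and at most 66.2% and 3.68% elsewhere. So all 5 adrenal cortex markers were highest on the same array, on each of their 7 probes, and their summed scaled intensity was 534.5% there. CYP21 and the brighter CYP17A1 probe made up most of this sum, and both were well above background on all 27 arrays. CYP11B1 was well above background on only 8 arrays and MC2R on 1. In the other 7 controls at 140 d the sum lay between 111.6% and 184%. It lay between 115.7% and 158% with cortisol at 140 d, between 115.8% and 189% with cortisol at 130 d and between 126% and 176.5% in controls at 130 d.

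CYP11A1, which starts steroid synthesis from cholesterol, was looked up after the values were seen. It read 44.2% and 30.3% on this array and at most 1.01% and 0.706% on the others, and it was well above background on no other array. The placental genes PRP1 and PRP2 were not highest there on any of their 4 probes. HSD11B1 on the same array, at 24.0%, and NR3C1, at 8.62%, lay within the range of the other controls at 140 d. The part of adrenal cortex genes in the HSD11B2 reading was not tested.

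**Figure D3:**
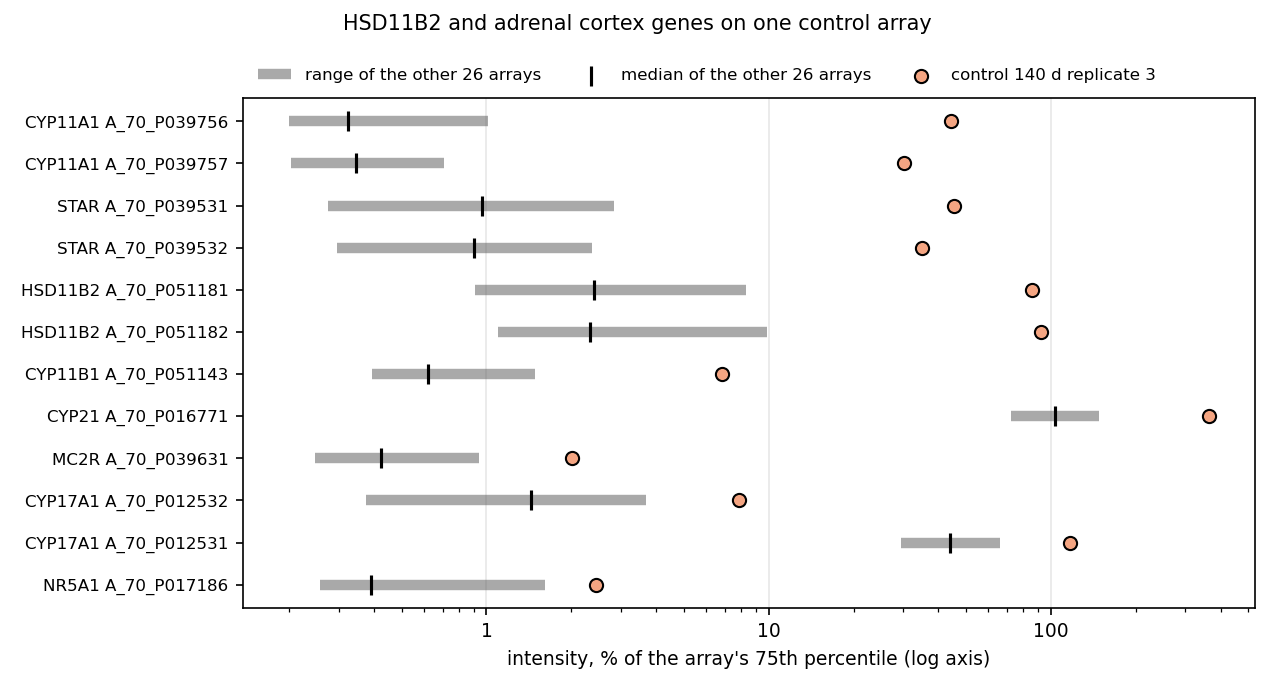
Scaled intensity (percent of the array's 75th percentile, log axis) of HSD11B2 and of steroid synthesis probes on control replicate 3 at 140 d (point) beside the range (bar) and median (tick) of the other 26 arrays. Each probe drawn was highest on this array, from CYP11A1 at 44.2% against at most 1.01% to NR5A1 at 2.44% against at most 1.62%, both genes added after the values were seen.

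The balance of the enzymes was followed as log2 HSD11B1 minus log2 HSD11B2 on the same array, with A_70_P051221 and A_70_P051182. Its size carries the probes' own brightness, so it is read only between groups. It averaged 3.35 ± 0.55 with cortisol and 2.47 ± 1.86 in controls at 140 d, and 3.52 ± 0.52 with cortisol and 2.96 ± 0.84 in controls at 130 d (SD, n = 7, 8, 6 and 6). Without control replicate 3, which stood alone at -1.94, the controls at 140 d averaged 3.10 ± 0.59 (n = 7). No test was made of this balance. In cortisol at 130 d the HSD11B2 probe was well above background on only 3 of 6 arrays, so its values there lean on readings near background. With normexp the averages were 1.97 with cortisol and 1.45 in controls at 140 d, and 1.48 with cortisol and 1.63 in controls at 130 d, so cortisol at 130 d was no longer the highest group.

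NR3C1, the glucocorticoid receptor, showed no difference past the threshold in any comparison. Its probe was well above background on all 27 arrays, with intensities between 52.8 and 138. With cortisol the scaled intensity had a low of 5.88%, a median of 9.24% and a high of 13.6% at 140 d, against 7.62%, 9.14% and 11.1% at 130 d. Controls had 6.57%, 10.06% and 13.5% at 140 d, against 6.95%, 8.27% and 11.3% at 130 d. The 4 groups overlapped widely. Cortisol minus control was -0.09 at 140 d (95% interval -0.41 to 0.24, adjusted p = 0.91) and 0.11 at 130 d (-0.26 to 0.47, adjusted p = 1.0). The age difference was 0.01 with cortisol (-0.34 to 0.36) and 0.20 in controls (-0.14 to 0.54), and with no scaling between arrays it was -0.32 and -0.27, also not called.

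**Figure D4:**
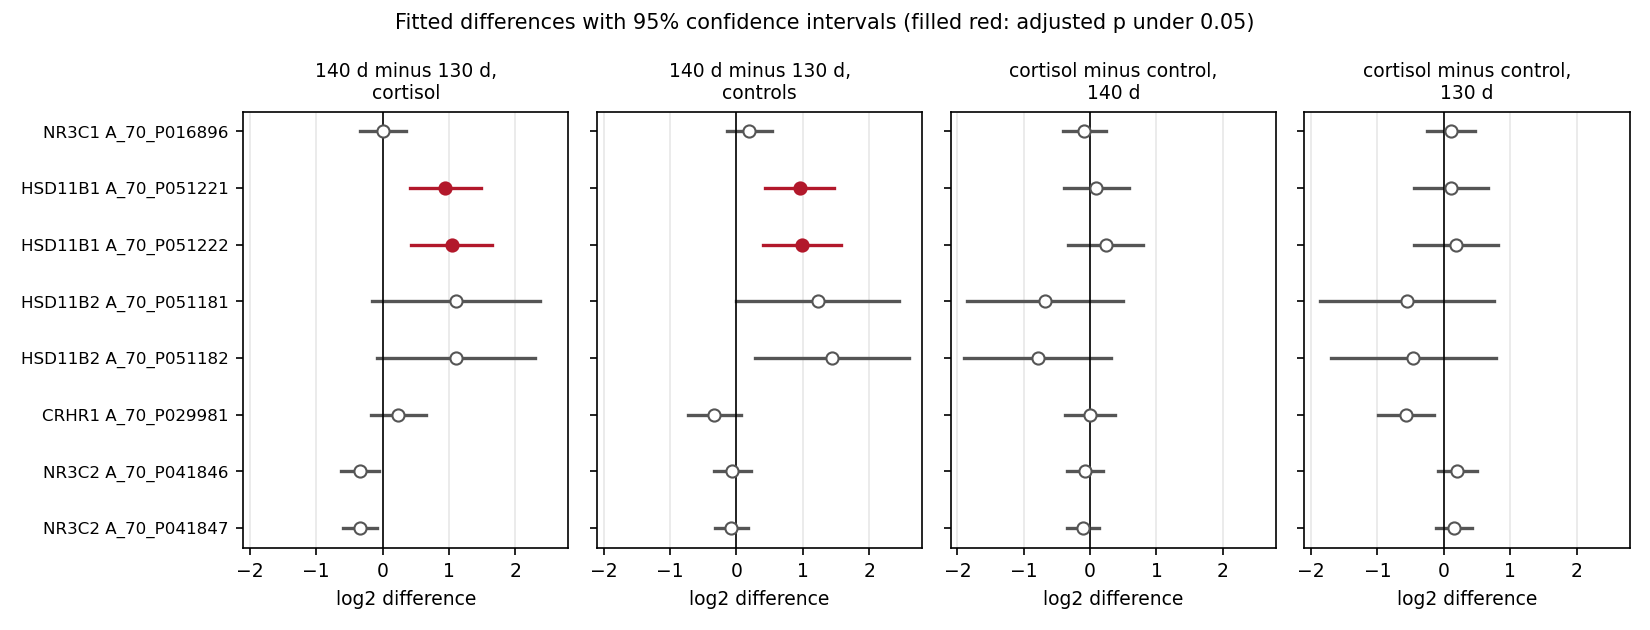
Fitted log2 differences (points) with 95% confidence intervals (lines) of the 6 probes and the 2 NR3C2 probes in 4 comparisons. Filled red points passed an adjusted p of 0.05. These are the HSD11B1 probes in both age comparisons, at 0.94 to 1.04.

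NR3C2, the mineralocorticoid receptor, is the other receptor through which cortisol acts in heart muscle. Its brighter probe A_70_P041846 averaged 685 ± 143% with cortisol and 721 ± 132% in controls at 140 d, against 865 ± 151% with cortisol and 744 ± 80.1% in controls at 130 d (SD, n = 7, 8, 6 and 6). At 140 d against 130 d with cortisol the difference was -0.34 ± 0.14 for A_70_P041846 and -0.34 ± 0.13 for A_70_P041847, with adjusted p of 0.104 and 0.0732. Both probes were past the threshold with slide as a fixed block (-0.43 and -0.45, adjusted p 0.0257 and 0.00476) and with no scaling between arrays (-0.67 and -0.66). Single slides and leaving out 1 array aside, each probe was called in 4 of 14 alternatives. Both were also called without cortisol replicate 7 at 140 d (-0.42 and -0.41, adjusted p 0.0457 and 0.0246). A_70_P041847 was called without replicate 1 of that group too (-0.39, adjusted p = 0.0401). In controls the age difference was -0.06 and -0.08, and -0.19 and -0.22 with slide as a fixed block, none of them called. With no scaling it was called in controls as well (-0.53 and -0.54, adjusted p 0.0102 and 0.00495). Scaled to the 75th percentile, the cortisol effect did not differ between the ages past the threshold (-0.28 and -0.26, adjusted p 0.974 for both).

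CRHR1, the receptor for corticotropin-releasing hormone, was dim, with a median intensity of 25.4, but was read on 5 spots per array and was well above background on all 27. In the older fetuses its scaled intensity had a low of 1.78%, a median of 2.485% and a high of 3.30% with cortisol, against 1.67%, 2.54% and 2.94% in controls. In the younger fetuses it had 1.28%, 2.15% and 3.27% with cortisol, against 2.00%, 2.90% and 4.87% in controls. At 130 d, 5 of 6 cortisol fetuses lay below the mean of the controls and replicate 4 lay above it. The difference was -0.57 ± 0.21 (unadjusted limma p = 0.0107, exact two-sided permutation p = 0.0476), and it failed the adjustment over all probes (adjusted p = 1.0). It turned to 0.42 with normexp, and within slides it was between -1.41 and 0.18. At 140 d the cortisol effect was 0.00 (95% interval -0.38 to 0.38), and the effects at the 2 ages differed by 0.57 ± 0.28 (adjusted p = 0.856). The age difference was 0.24 ± 0.20 with cortisol and -0.33 ± 0.19 in controls, with adjusted p of 0.47 and 0.234. With no scaling between arrays the control difference was -0.80 and past the threshold (adjusted p = 0.00288), whereas with normexp its sign turned (0.28, adjusted p = 0.675).

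Genes whose level went with each of the 4 across the 27 arrays, after group means were removed, were ranked among 791 named genes by Pearson's r. These are descriptions of arrays that share their scaling and slides. For HSD11B1 the closest were FGF10 (r = 0.616), FABP4, the fatty acid carrier of fat cells (0.591), MET (0.575) and CHI3L1 (0.562). FGF10 was well above background on 15 of 27 arrays and FABP4 on 17. Without the 2 farthest arrays r was 0.410 for FGF10, 0.686 for FABP4, 0.460 for MET and 0.451 for CHI3L1. The most opposite were SLIRP (-0.664) and ATP5MC2 (-0.650), both genes of mitochondria, at -0.601 and -0.655 without the same 2 arrays. For HSD11B2 the closest were CYP11B1 (0.800), CYP21 (0.795), IGFBP3 (0.792) and STAR (0.733), and without control replicate 3 at 140 d these fell to 0.471, 0.483, 0.452 and 0.358. The T cell genes CD247 (-0.568) and CD3E (-0.537) ran most opposite to HSD11B2.

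For NR3C1 the closest were RPS20 (0.712), IGF1 (0.705), the matrix proteoglycan DCN (0.694) and RPL14 (0.694). The most opposite were SLC25A20, the mitochondrial carnitine carrier (-0.795), and ME1, malic enzyme (-0.766). Without the 2 arrays farthest for NR3C1, r was 0.654 for RPS20, 0.586 for IGF1, 0.600 for DCN and 0.582 for RPL14. It was then -0.668 for SLC25A20 and -0.708 for ME1. For CRHR1 the closest were NPY1R (0.699), HOXC6 (0.694), SFTPB (0.687) and a keratin-associated protein gene that was well above background on only 6 arrays. TLR6 (-0.611) and ATP7B (-0.57) were the most opposite. Without the 2 arrays farthest for CRHR1, r was 0.585 for NPY1R, 0.648 for HOXC6 and 0.666 for SFTPB. It was then -0.489 for TLR6 and -0.654 for ATP7B. Between the 4 genes themselves r lay between -0.274 and 0.174.

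Other genes of the pathway were followed as 4 lists. Of 7 measured genes known as targets of the corticosteroid receptors, 4 were called higher and none lower at 140 d than at 130 d with cortisol. Over all tested probes 4.94% were called higher and 8.52% lower in that comparison. The median difference of the 7 genes was 0.47, beside -0.04 over all tested probes. The 4 called included NFKBIA, the inhibitor of NF-kappaB (1.30 ± 0.30, adjusted p = 0.0049), and CEBPB, a transcription factor (1.09 ± 0.31, adjusted p = 0.0189). Also called were VDUP1, also known as TXNIP (0.90 ± 0.27, adjusted p = 0.0295), and ATP1B1, a sodium pump subunit (0.47 ± 0.12, adjusted p = 0.00889). The VDUP1 call was lost on leaving out any 1 of cortisol replicates 1, 4 and 6 at 130 d and 2, 4 and 6 at 140 d (0.71 to 0.89, adjusted p 0.0504 to 0.0727). Single slides aside, it was kept in 9 of 14 other alternatives. NFKBIA averaged 591 ± 441% at 140 d and 207 ± 35.0% at 130 d in the cortisol arm (SD, n = 7 and 6). In controls 1 of the 7 was called higher, ATP1B1 (0.45 ± 0.11, adjusted p = 0.00835), beside 9.77% of all tested probes. With no scaling between arrays its difference was -0.0209 (adjusted p = 0.896). The median over the list in controls was 0.28, beside -0.01 over all tested probes. None of the 7 was called for cortisol against control at either age. The cortisol effect did not differ between the ages past the threshold for NFKBIA (0.97, adjusted p = 0.748). With normexp the list had 1 call with cortisol and 0 in controls, and with quantile normalization 2 and 0.

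Of 3 measured genes of the corticotropin axis, UCN, urocortin, a ligand of CRHR1, was called lower at 140 d than at 130 d with cortisol (-0.53 ± 0.15, adjusted p = 0.0203). It averaged 6.25 ± 0.784% at 140 d and 9.07 ± 1.49% at 130 d in that arm (SD, n = 7 and 6). The call was lost without cortisol replicate 6 at 130 d (-0.47, adjusted p = 0.056), with normexp (-0.35, 0.753), with quantile normalization (-0.40, 0.0655) and with slide as a fixed block (-0.43, 0.0591). In controls UCN differed by -0.39 ± 0.15 (adjusted p = 0.0575). Of 2 measured genes of the receptor and chaperone list, HSP90AA1, a chaperone of the receptors, was called lower at 140 d with cortisol (-0.39 ± 0.13, adjusted p = 0.0419). The call was lost on leaving out any 1 of 8 arrays, cortisol replicates 1, 2, 3 and 4 at 130 d and 1, 2, 4 and 7 at 140 d (-0.39 to -0.29, adjusted p 0.0613 to 0.1). Single slides aside, it was kept in only 6 of 14 other alternatives. Among those that lost it were normexp, the median shift, the authors' values and slide as a fixed block (-0.35 to -0.28, adjusted p 0.0767 to 0.389). The other gene of that list is NR3C2, given above. Beside the lower calls of UCN and HSP90AA1 with cortisol, 8.52% of all tested probes were called lower at 140 d. None of the 5 measured genes of steroid synthesis and transport was called in any comparison. Leaving out 1 array gave a call to ABCB1, a pump that exports drugs and steroids, which was higher at 140 d in controls without control replicate 1 at 140 d (1.18, adjusted p = 0.0369). With cortisol it was called without control replicate 3 at 140 d (1.06, adjusted p = 0.0442) or cortisol replicate 2 at 130 d (1.27, adjusted p = 0.0491).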

How the data were processed

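One-colour arrays of fetal heart septum from 27 sheep were analysed, 1 per fetus. Per the file headers, the scanner software subtracted background and spatial trend from each spot's intensity, and did no scaling between arrays. That software was Agilent Feature Extraction (10.1.1.1 in the submitters' processing notes). The authors also deposited log2 values, which differ from the log2 scanner values by a single shift for each array, of unstated origin (largest residual SD 2e-06). The files' genome build is not given in the sources used here, so no coordinates are given.

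Outlying spots were left out, spots of a probe averaged, and log2 intensity minus the array's 75th percentile taken. Probes with a signal well above background on 6 or more arrays (12775) were fitted over all 4 groups with limma 3.58.1 (lmFit, eBayes; R 4.3.3). P-values were adjusted by Benjamini-Hochberg. Exact permutation tests were computed in R over all arrangements of the fetuses. On simulated data for the age comparison in controls, over 15008 probes, 77% of 100 changes of 1 and 95% of 100 changes of 2 (log2) were called. Symbols came from the files or a RefSeq table for assembly ARS-UI_Ramb_v3.0.

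All probes of the 4 genes are given. For likeness, the 4 highest and 2 lowest named genes by r with each gene's brightest probe were taken. Of 4 pathway lists, the genes past the threshold are named, each gene followed by its brightest tested probe. Members, lists and tests were chosen with earlier results of these data known. Replicate numbers were not used as pairs in the main fit. Of 37 same-numbered pairs, 13 had deviations correlated above 0.1, and their median correlation was 0.0512, against -0.021 for other pairs. Replicate number partly follows slide, so pairing and slide cannot be told apart here. Alternatives were other background corrections, scalings, filters and slide terms, the authors' values, and leaving out arrays. The design of separate fetuses is stated by the labels, and the number of arrays limits the precision. No spot was saturated (0 spots).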

Additional observations from a re-analysis of the deposited data

Results flagged for a closer look

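A single fetus, control replicate 3 at 140 d, stood far from the other 7 of its group for HSD11B2. For A_70_P051182 it had 92.1% of the array's 75th percentile, while the others lay between 1.56% and 9.87%. Its gap to the nearest was 0.547 of the group's whole log2 range, above the limit of 0.526 for 8 samples. For A_70_P051181 it had 85.8%, the others lay between 1.56% and 8.30%, and the gap was 0.583 of the range. The probes share 59 of 60 bases, so this is 1 finding. Among 32 groups tested, 2 stood out in this way, and chance alone flags about 1 in 20.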

How the results depend on the processing

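The 2 calls in each age comparison became 0 with normexp and 0 within slide 2, 3 or 4 alone. With no scaling between arrays, an alternative chosen after seeing the data, there was 1 call in controls (CRHR1, lower) and 0 with cortisol. Leaving out 1 array gave 1 to 3 calls in each age comparison and 0 to 0 in the other 4. A_70_P051222 fell short in controls without control 130 d replicate 5 (0.82, adjusted p = 0.0563) and with cortisol without cortisol 130 d replicate 5 (0.91, adjusted p = 0.0557). Of the 14 alternatives other than single slides and leaving out 1 array, 12 called it in controls and 11 with cortisol. For A_70_P051221 these were 12 and 12. A_70_P051182 was called in controls with quantile normalization, the median shift and the authors' values (1.56, 1.53 and 1.54). Reversed within slide 4 alone were A_70_P051222 with cortisol (-0.12) and HSP90AA1 with cortisol (0.30), and with no scaling ATP1B1 in controls (-0.0209). The difference of HSD11B1 and HSD11B2 with normexp was 1.97 with cortisol at 140 d, 1.48 with cortisol at 130 d and 1.63 in controls at 130 d. Leaving out 1 array it ranged from 3.18 to 3.43 with cortisol and from 2.27 to 3.10 in controls at 140 d, and from 3.36 to 3.65 with cortisol and from 2.82 to 3.21 in controls at 130 d. The cause of these changes was not tested, except that a single slide leaves fewer arrays.

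Over all probes, calls in controls and with cortisol numbered 2443 and 1719, 536 and 339 with normexp, 7272 and 4850 with no scaling, and at most 5 and 29 within a slide. Of these, 51.1% and 36.7% were higher, and 71.3% and 64.1% with the authors' values. The median over all probes moved by 0.10 with cortisol under the median shift or the authors' values, and by 0.16 in controls with normexp. With a replicate block the calls among the 6 probes were 2 and 2, and no call of theirs changed, but with cortisol NR3C2 was called on both probes (-0.42 and -0.41) and HSP90AA1 was not (-0.36, adjusted p = 0.116). Whether the numbers pair the fetuses is not settled: 11 of 27 arrays correlated best with their own number, and replicate number partly follows slide. Signal near background limits HSD11B2 and CRHR1.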
